A study of Mus musculus with 141 samples.

Results

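The miR-34 and miR-449 family of microRNAs (miRNAs) was followed in 3 brain regions of mice that drank nicotine or were withdrawn from it. The members were the mature miRNAs mmu-miR-34a-5p, mmu-miR-34b-5p, mmu-miR-34b-3p, mmu-miR-34c-5p, mmu-miR-449a-5p and mmu-miR-449c-5p, taken by name, and all 6 were found among the 1907 mature miRNAs listed for the 3 regions. Their levels were read in 75 small RNA libraries, and the mRNAs discussed below were read in 66 mRNA libraries. The regions were the medial habenulae (MHb), the interpeduncular nucleus (IPN) to which MHb neurons project, and the nucleus accumbens (NAc).

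All mice were male C57BL/6J animals whose treatment began at 6 weeks of age, and each library pooled tissue from 4 brains. Mice in acute withdrawal (NAWD) drank nicotine at 200 μg/ml for 6 weeks and were then without it for 48 h. Nicotine mice (Nic) drank it for 6 weeks with no withdrawal, and control mice (TA) drank tartaric acid, the counter-ion of the nicotine salt, for 6 weeks. Mice in long withdrawal (NLWD) had 6 weeks of nicotine and 4 weeks without it, and their age-matched controls (TAL) had 10 weeks of tartaric acid. All solutions carried saccharine at 3 g/L. Each region and treatment had 5 miRNA libraries, and the mRNA groups had 2 to 5 libraries. The p-values below measure the spread between these pooled libraries. TAL and TA mice differed in age and in the time on tartaric acid, and their miRNA libraries differed in depth (in the MHb 12590437 to 26542631 assigned reads in TAL, against 2788281 to 4452432 in TA libraries; in the IPN 5613513 to 16341728, against 6459074 to 12393851). Which libraries shared a sequencing run is not given in the sources used here, so age, exposure and library making cannot be told apart where both groups are given.

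miRNAs of the family share a seed, the short stretch near the 5′ end with which a miRNA pairs to its targets. miR-34a is known as a transcriptional target of the tumor suppressor p53, while miR-34b and miR-34c are cut from a shared primary transcript and the miR-449 miRNAs lie in an intron of Cdc20b. The miR-34b/c and miR-449 clusters are abundant in multiciliated epithelia, where they are needed to build motile cilia. In the brain such cells line the ventricles as ependyma, and the MHb borders the third ventricle.

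The mature sequences below are those of RefSeq (GRCm38.p6), written 5′ to 3′ with the seed, bases 2 to 8, in capitals, and are shown because the shared seed defines the family. All names but miR-34c-5p matched an entry.
miR-34a-5p: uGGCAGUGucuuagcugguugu
miR-34b-5p: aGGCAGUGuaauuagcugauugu
miR-449a-5p: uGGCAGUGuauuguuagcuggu
miR-449c-5p: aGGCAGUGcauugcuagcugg
miR-34b-3p: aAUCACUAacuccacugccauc
The 4 printed 5p members carried the seed GGCAGUG, and miR-34b-3p, which comes from the other arm of the miR-34b hairpin, carried AUCACUA. Beyond the seed, after base 8, the 5p members also shared bases: the longest run held by a pair was 9 for miR-34a-5p with miR-449a-5p (uuagcuggu) and 6 or 7 for the other pairs, against 3 for any of them with miR-34b-3p. The hairpin of miR-34a lay on chr4:150068454-150068555 on the plus strand. The hairpins of miR-34b (chr9:51103562-51103645) and miR-34c (chr9:51103034-51103110) lay on the minus strand with 451 bases between them. Those of miR-449a (chr13:113037534-113037624) and miR-449c (chr13:113035983-113036091) lay on the plus strand, 1442 bases apart.

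The miRNA libraries held 2788281 to 33690462 assigned reads, and levels are given as RPM (the reads of a miRNA scaled to a fixed total per library). In the IPN and the MHb every NAWD library was deeper than every Nic and TA library (in the IPN 13478993 to 20003529 reads, against 7334488 to 11595725 in Nic and 6459074 to 12393851 in TA libraries), and the part of this in the results was not tested. Defining mRNAs, in TPM (the length-corrected share of a transcript in a library), mostly followed the tissue labels. The neuropeptide gene Tac2 averaged 636.5 TPM in the MHb, 3.42 in the IPN and 42.5 in the NAc. The transcription factor gene Otp averaged 19.4 TPM in the IPN and at most 0.0571 in the other regions, while the dopamine receptor gene Drd1 averaged 31.3 TPM in the NAc and at most 0.437 elsewhere. Some markers listed for the IPN were higher elsewhere. Gad1 averaged 168 TPM in the IPN and 267.2 in the NAc, and Gad2 21.91 and 93.92 in the same order. Chrnb4, listed for the IPN and the MHb, averaged 1.38 TPM in the IPN and 24.85 in the MHb. The other markers listed for the 3 regions were highest in their own. Multiciliated cells were represented in the MHb punches. Their marker Tmem212 averaged 234.6 TPM in the MHb, 0.243 in the IPN and 11.8 in the NAc. Their marker Ccdc153 averaged 110.1, 0.116 and 7.65 TPM in the same order. Rsph1 also ranked the regions this way, but Foxj1 was higher in the IPN than in the NAc (71.48, 23.02 and 9.896 TPM). The MHb punches held choroid plexus RNA as well: its gene Ttr averaged 27630 TPM in the MHb, 34.41 in the IPN and 1.724 in the NAc. Counting error was small for most members. The 94 reads of miR-34b-5p in NLWD replicate 3 of the IPN, the fewest of that miRNA, gave 20.4 RPM with a 95% Wilson interval of 16.7 to 25.0 RPM, an interval that covers counting error only.

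miR-34c-5p dominated the family in the MHb. Over the 25 libraries of each region it averaged 18470 ± 3325 RPM (SD) in the MHb, 793.4 ± 122.2 RPM in the IPN and 646.6 ± 383.7 RPM in the NAc. In the MHb it ranked 15 among all miRNAs by mean level, against 110 in the IPN and 109 in the NAc. The members other than miR-34b-3p together took 1.96% of all miRNA reads in the MHb, 0.158% in the IPN and 0.0762% in the NAc. The miR-34b arms followed the same order of regions: miR-34b-5p averaged 779.1 RPM in the MHb, 55.7 in the IPN and 27.9 in the NAc, and miR-34b-3p 580.5, 28.5 and 23.3 RPM. In bulk tissue fewer cells of a type and less RNA per cell cannot be told apart.

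miR-34a-5p was ordered differently. It averaged 379.8 ± 72.8 RPM in the MHb, 718.5 ± 236.8 RPM in the IPN and 73.8 ± 21.6 RPM in the NAc. In the IPN it was about as abundant as miR-34c-5p (median ratio of miR-34c-5p to miR-34a-5p 1.16), while in the MHb that ratio had a median of 48.1 and in the NAc of 8.16. The miR-449 members were scarce everywhere. miR-449a-5p averaged 7.52 RPM in the MHb, 9.04 in the IPN and 12.9 in the NAc, and miR-449c-5p averaged under 1 RPM in each region and was at 0 in 4 MHb libraries, where a count of 0 allows up to 0.841 to 1.08 RPM (3 reads). Of the other products of these hairpins, miR-34c-3p in the MHb was the 1 with a regional mean of at least 10 RPM, at 15.3 RPM, while miR-34a-3p averaged 5.08 RPM in the IPN with up to 12.3 RPM in a library.

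**Figure D1:**
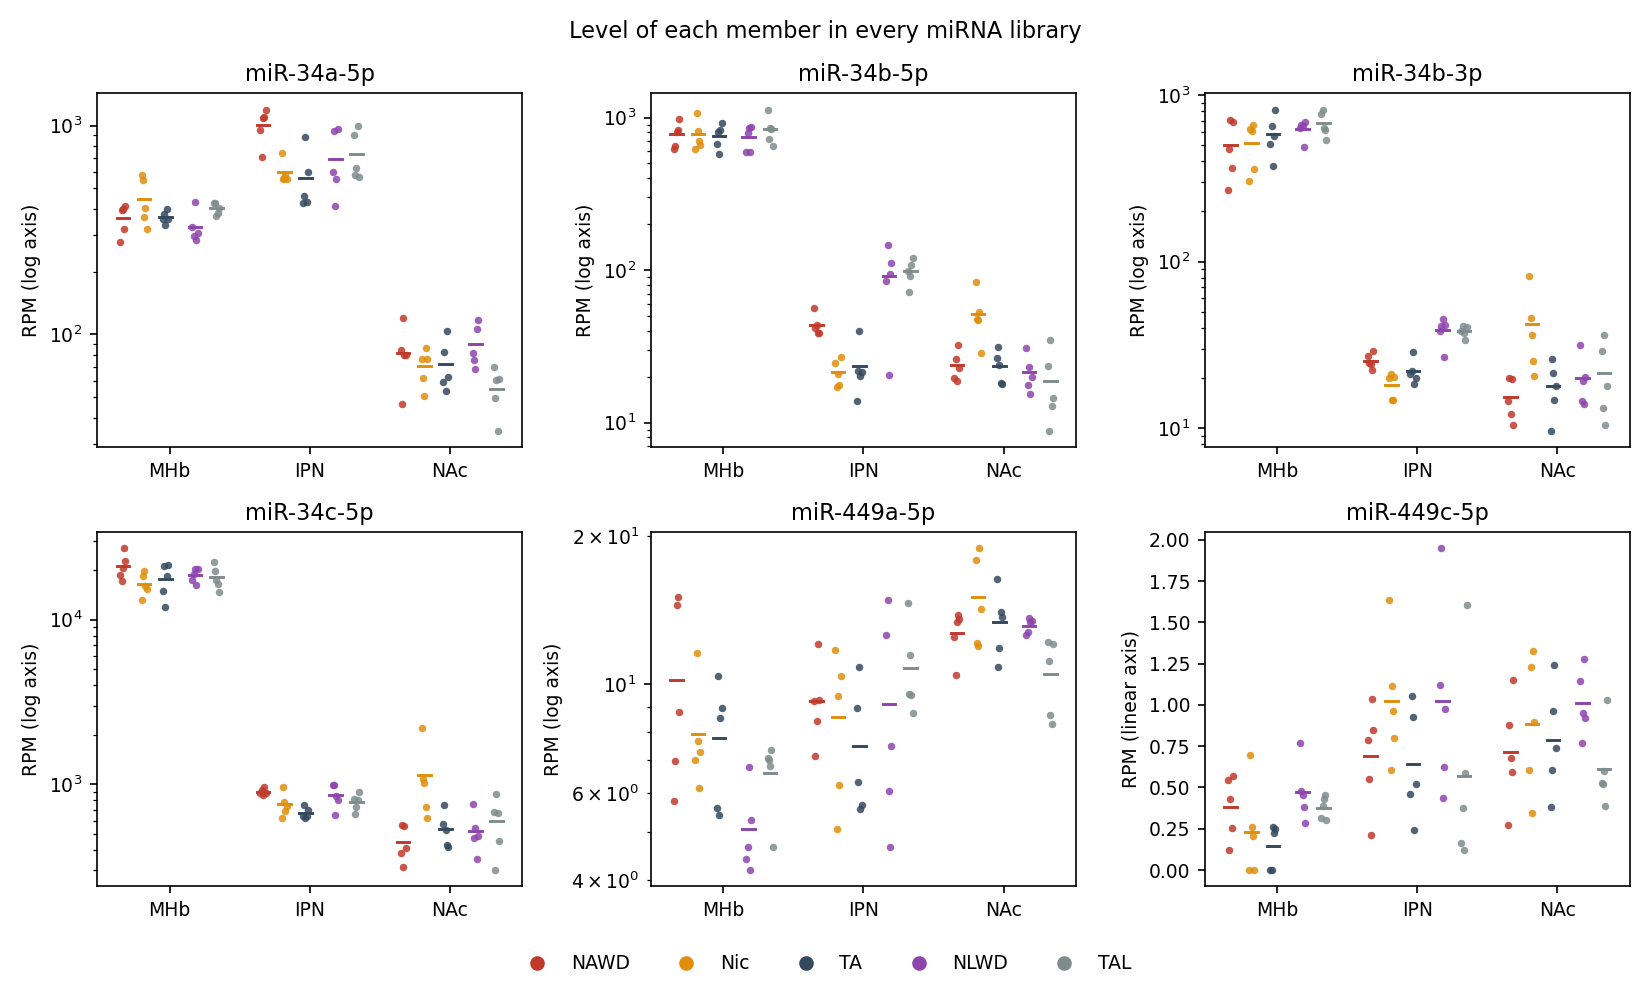
Level of each member (RPM, log axes, linear for miR-449c-5p) in the 75 miRNA libraries, by region and treatment, with a point per library and a horizontal line at the mean of each 5. miR-34c-5p, miR-34b-5p and miR-34b-3p stand far higher in the MHb than in the IPN or NAc, miR-34a-5p is highest in the IPN, and miR-34b-5p in the IPN is higher in the TAL libraries and 4 of 5 NLWD libraries than in the other treatments, with NLWD replicate 3 at 20.4 RPM.

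The regions were compared in the TA mice with limma on log2(RPM + 1). A member was called at an adjusted p (Benjamini-Hochberg, over all miRNAs tested) under 0.01. Between the MHb and the IPN 3 of 6 members were called, all higher in the MHb, where 22.9% of the 859 miRNAs tested were called. The TA libraries of the MHb held 575.6 to 924.4 RPM of miR-34b-5p, against 13.9 to 40.1 RPM in those of the IPN (log2 difference 5.02 ± 0.21 SE, limma adjusted p = 3.158e-14). For miR-34c-5p the difference was 4.69 ± 0.16 and for miR-34b-3p 4.64 ± 0.22. The TA libraries of the MHb held 332.7 to 397.3 RPM of miR-34a-5p and those of the IPN 426.0 to 878.3 RPM. These did not overlap, as for 201 of the 859 miRNAs, but the difference of -0.56 ± 0.18 did not pass (limma adjusted p = 0.0220). In TAL mice it did (limma adjusted p = 0.000366), with 5 members called in all, and miR-449a-5p was then also lower in the MHb. Without IPN TA replicate 4, miR-449c-5p passed in TA mice as well (-0.60, limma adjusted p = 0.00853).

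Between the MHb and the NAc all 6 members were called in TA mice, against 37.6% of all miRNAs tested. miR-34c-5p (5.03 ± 0.16), miR-34b-3p (4.98 ± 0.22), miR-34b-5p (4.97 ± 0.21) and miR-34a-5p (2.35 ± 0.18) were higher in the MHb on the log2 scale. miR-449a-5p (-0.73 ± 0.20) and miR-449c-5p (-0.63 ± 0.16) were lower there. Over all miRNAs 200 were higher and 123 lower, with a median of 0.10, and under quantile normalization 151 were higher and 169 lower, with a median of -0.06 and no changed direction among the members. The miR-449a-5p call was lost without any of 5 libraries in turn (MHb TA replicates 1 and 3 and NAc TA replicates 1, 4 and 5, limma adjusted p 0.0115 to 0.0174), and with the replicate number as a block (-0.73, limma adjusted p = 0.0116), and the miR-449c-5p call without NAc TA replicate 4 (0.0120). In TAL mice miR-449c-5p was not called either (0.325).

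Between the IPN and the NAc, 2 of 6 members were called, against 35.6% of all miRNAs (182 higher and 124 lower, and 142 and 162 under quantile normalization, which moved the median of all miRNAs to -0.01, against 0.11 as tested). miR-34a-5p was higher in the IPN by 2.92 ± 0.18 on the log2 scale (limma adjusted p = 2.247e-11). miR-449a-5p was lower there by -0.79 ± 0.20, but in TAL mice the value was 0.03. The order of miR-34c-5p, miR-34b-5p and miR-34b-3p between these 2 regions was not resolved in TA mice: the differences were 0.35 ± 0.16, -0.05 ± 0.21 and 0.34 ± 0.22, with limma adjusted p of 0.0735, 0.856 and 0.217. In TAL mice, where 411 miRNAs were higher and 171 lower, both arms of miR-34b passed and were higher in the IPN (miR-34b-5p 2.45, limma adjusted p = 2.48e-08, and miR-34b-3p 0.94, limma adjusted p = 0.00125), and miR-34c-5p did not (0.47, limma adjusted p = 0.0477).

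The 5p and 3p arms of miR-34b did not keep a fixed proportion. In the MHb the ratio of miR-34b-5p to miR-34b-3p had a median of 1.33 over 25 libraries and treatment medians of 1.22 to 1.73. In the IPN it had a median of 1.74 in NAWD (1.34 to 2.10), 1.22 in Nic (0.811 to 1.41) and 1.07 in TA libraries (0.654 to 1.4). All 5 TAL libraries in the IPN (1.75 to 3.18, median 2.61) lay above every TA library, and in NLWD the median was 2.68, with 1 library at 0.452.

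Of the miR-34b arms, the 5p arm carried most of the IPN shift between the cohorts. Products of other hairpins shifted there too. miR-34a-3p had 7.01 to 12.3 RPM in TAL and 1.66 to 2.82 RPM in TA libraries of the IPN. miR-34c-3p had 1.81 to 2.69 RPM and 0.155 to 0.804 RPM in the same order. miR-34b-5p had 99.4, 71.6, 91.3, 107 and 121 RPM in the TAL libraries of the IPN, against 13.9, 22.0, 40.1, 20.2 and 21.4 RPM in TA libraries. The groups did not overlap, and no test was made between them. How many other miRNAs had no overlap was not counted. miR-34b-3p averaged 38.0 ± 2.85 RPM in TAL and 22.1 ± 3.93 RPM in TA libraries (SD, n = 5 each), and miR-34c-5p averaged 780.4 ± 91.0 and 670.2 ± 50.4 RPM in the same order. The ratio of miR-34c-5p to miR-34b-5p in the IPN accordingly had a median of 8 in TAL libraries and 32.5 in TA libraries. In the MHb, the same ratio had medians of 20.5 in TAL and 22.4 in TA libraries. In the NAc the order of the cohorts was the other way round, with medians of 31.2 in TAL and 23.1 in TA libraries, and of 0.816 and 1.19 for the ratio of miR-34b-5p to miR-34b-3p in the same order.

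Within groups, the members also moved together differently by region. These are correlations of log2(RPM + 1) after centering on treatment, over 25 libraries a region. They are given as a description, since which libraries shared a run is not known. miR-34b-5p followed miR-34c-5p in the NAc (r = 0.88) and the MHb (0.79), and less so in the IPN (0.44). miR-34b-5p followed the other arm of its own hairpin in the NAc (0.79) and the MHb (0.66), but not in the IPN (0.02), where its closest member was miR-34a-5p (0.66, against 0.34 in the MHb and 0.03 in the NAc).

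**Figure D2:**
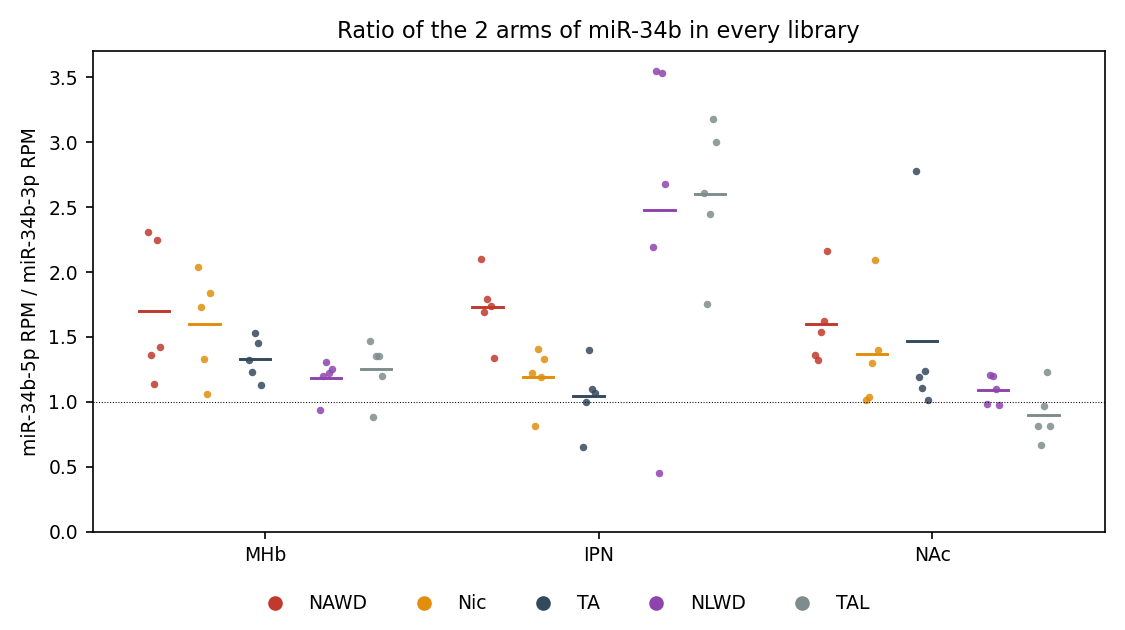
Ratio of miR-34b-5p to miR-34b-3p (RPM over RPM, linear axis) by region and treatment, with a point per library, a horizontal line at the mean of each 5 and a dotted line at equal levels. In the IPN the TAL libraries lie at 1.75 to 3.18 and the TA libraries at 0.654 to 1.4, and 1 NLWD library lies alone at 0.452.

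After 48 h of withdrawal miR-34a-5p and miR-34b-5p rose in the IPN. The comparison asked which miRNAs of the region change when nicotine is removed. miR-34a-5p had 951, 706, 1087, 1104 and 1194 RPM in NAWD libraries, 740, 554, 559, 581 and 554 RPM in Nic libraries and 426, 459, 878, 429 and 601 RPM in TA libraries. NAWD replicate 2 lay below TA replicate 3 and Nic replicate 1, and the other 4 NAWD libraries lay above every Nic and TA library. miR-34b-5p had 56.7, 41.5, 43.5, 38.9 and 38.6 RPM in NAWD libraries, 24.5, 17.1, 20.8, 17.6 and 27 RPM in Nic libraries, and the TA values given above. Its NAWD and Nic libraries did not overlap, as for 87 of 1027 miRNAs, and TA replicate 3 was the only TA library within the NAWD range.

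In NAWD against TA mice, 2 of the 6 members were called, both upward, where 4.44% of 1014 miRNAs were called. miR-34a-5p differed by 0.97 ± 0.13 on the log2 scale (limma adjusted p = 2.92e-05), and the call held in every alternative tried and without each library in turn (0.83 to 1.18). miR-34b-5p differed by 0.74 ± 0.15 (limma adjusted p = 0.00290), and lost its call without TA replicate 4 (0.0280) or NAWD replicate 3 (0.0131) and, for example, under quantile normalization (0.56, limma adjusted p = 0.0204). Of all miRNAs 42 rose and 3 fell, but under quantile normalization 23 rose and 22 fell, and with edgeR 26 rose and 19 fell.

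miR-34c-5p, the most abundant member in the IPN beside miR-34a-5p, had 879, 925, 859, 959 and 884 RPM in NAWD libraries, 625.4, 956, 779, 686 and 743 RPM in Nic libraries and 646, 747, 626, 638 and 695 RPM in TA libraries. Of 1014 miRNAs, 129 did not overlap between NAWD and TA libraries, in either direction. For miR-34c-5p every NAWD library lay above every TA library, but the difference of 0.35 ± 0.09 did not pass (limma adjusted p = 0.0134). It passed with a pseudocount of 0.1, with only the NAWD and TA libraries in the fit, and without TA replicate 5 or any 1 of the Nic libraries (0.00239 to 0.00824), and was 0.21 under quantile normalization (adjusted p = 0.124). miR-34b-3p (0.13 ± 0.14), miR-449a-5p (0.45 ± 0.21) and miR-449c-5p (0.17 ± 0.20) were not called. Summed over the list, the multiciliated markers spanned 152.9 to 202.7 TPM in NAWD and 159.8 to 203.3 TPM in TA libraries of the IPN, and none of the 38 tested was called. The summed choroid plexus genes stood at 145, 267, 411, 269 and 242 TPM in NAWD libraries, against 574, 592, 564, 244 and 585 TPM in TA libraries of the IPN. All but 1 TA library lay above every NAWD library, none of 19 of these genes was called, and their part in the miRNA values was not tested.

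In NAWD against Nic mice miR-34a-5p and miR-34b-5p were again the members called in the IPN, 2 of 6, against 5.36% of 1027 miRNAs. miR-34b-5p was higher in NAWD by 0.71 ± 0.13 and miR-34a-5p by 0.60 ± 0.11 (limma adjusted p = 0.00217 for each). Without factors of unwanted variation neither passed, although the differences were then 1.01 and 0.74 (limma adjusted p = 0.0103 and 0.0211). miR-34b-3p had 22.4 to 28.9 RPM in NAWD and 14.8 to 21.0 RPM in Nic libraries, with no overlap, and a difference of 0.36 ± 0.12 that did not pass (limma adjusted p = 0.0538). Of the 1027 miRNAs, 87 had no overlap between NAWD and Nic libraries. The NAWD libraries are those of the comparison with TA mice, so the 2 comparisons are not independent. In this comparison 47 miRNAs rose and 8 fell, against 18 and 21 under quantile normalization.

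Nicotine itself, in Nic against TA mice, called 0 members in the IPN by limma and by edgeR, where 0% of 976 miRNAs were called by limma. In that comparison 2 members had an unadjusted p under 0.05, miR-34a-5p (0.37 ± 0.11, limma adjusted p = 0.182) and miR-449c-5p (0.44 ± 0.18). Of the 976 miRNAs, 114 had such a p, and without factors 0 members did. miR-34a-5p averaged 597.4 RPM in Nic and 558.7 RPM in TA libraries.

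In the MHb, where its level was highest, miR-34c-5p was the 1 member called. miR-34c-5p had 18735, 17303, 20620, 27140 and 22848 RPM in NAWD libraries and 13236, 18328, 19879, 15959 and 15412 RPM in Nic libraries. The groups overlapped, although 3 NAWD libraries lay above every Nic library. The TA libraries spanned 11978 to 21505 RPM. In NAWD against Nic mice miR-34c-5p rose by 0.37 ± 0.08 on the log2 scale (limma adjusted p = 0.00322), the only call among 6 members, where 6.61% of 878 miRNAs were called. It was lost with a mean of at least 10 RPM required (0.36, limma adjusted p = 0.0204, where miR-34b-3p passed in its place at 0.44 and 0.00536), without factors (0.36, limma adjusted p = 0.174) and without Nic replicate 1, Nic replicate 5 or NAWD replicate 3 (0.0164 to 0.0350).

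miR-34b-3p did not pass in the same comparison (0.32 ± 0.08, limma adjusted p = 0.0143), passed without Nic replicate 2, Nic replicate 4 or NAWD replicate 1, and without factors had a value of -0.06. In NAWD against TA mice, 0 of 6 members were called in the MHb by limma or edgeR, where 2.61% of 880 miRNAs were called by limma, and 1 had an unadjusted p under 0.05, miR-34c-5p (0.27 ± 0.08, limma adjusted p = 0.0556). In Nic against TA mice, 0 were called by either tool (0.118% of 845 miRNAs by limma) and 1 had an unadjusted p under 0.05, miR-34a-5p (0.25 ± 0.09, limma adjusted p = 0.215). An unadjusted limma p under 0.05 was held by 158 of the 880 miRNAs in NAWD against TA and by 114 of the 845 in Nic against TA mice. Across all miRNAs of the MHb, 12 rose and 11 fell in NAWD against TA mice, against 20 and 11 by edgeR, 0 and 4 with a pseudocount of 0.1, and 0 and 1 without factors.

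In the NAc the chromosome 9 members stood highest under nicotine. miR-34c-5p had 2210, 1083, 1011, 731 and 622 RPM in Nic libraries, against 570, 744, 527, 428 and 416 RPM in TA libraries. miR-34b-5p had 83.2, 47.7, 47.1, 53 and 28.7 RPM in Nic libraries, against 26.6, 31.2, 23.7, 18.3 and 18.0 RPM in TA libraries. For miR-34c-5p 3 Nic libraries and for miR-34b-5p 4 lay above every TA library, and the others lay below TA replicate 2 but above the remaining TA libraries. The differences were 0.89 ± 0.19 for miR-34b-5p, 0.98 ± 0.25 for miR-34b-3p and 0.82 ± 0.20 for miR-34c-5p, and none passed (limma adjusted p = 0.0256, 0.0740 and 0.0668). By limma 0 of 6 members were called, against 0.204% of 979 miRNAs, edgeR called 1, miR-34b-5p, and 3 had an unadjusted limma p under 0.05. Of the 979 miRNAs, 119 had such a p. Without Nic replicate 5, miR-34b-5p (1.17), miR-34b-3p (1.28) and miR-34c-5p (1.09) were all called (limma adjusted p = 0.00134, 0.0095 and 0.00652). Without NAWD replicate 5, which enters the fit, miR-34b-5p and miR-34c-5p were called, and without NAWD replicate 6 miR-34b-5p was.

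In NAWD libraries of the NAc miR-34c-5p had 384, 562, 315, 560 and 408 RPM, below every Nic library. Against Nic mice it differed by -1.04 ± 0.19 (limma adjusted p = 0.0126), miR-34b-3p by -1.14 ± 0.24 (0.0267, with no overlap between the groups) and miR-34b-5p by -0.89 ± 0.18 (0.0267). By limma 0 of 6 were called, against 0.1% of 996 miRNAs, while edgeR called miR-34b-5p, miR-34b-3p and miR-34c-5p, the 3 with an unadjusted limma p under 0.05. Of the 996 miRNAs, 135 had such a p and 18 did not overlap between the groups. By limma miR-34b-5p, miR-34b-3p and miR-34c-5p all passed without Nic replicate 5 or NAWD replicate 5. miR-34c-5p also passed without TA replicate 2, TA replicate 4 or NAWD replicate 3. In NAWD against TA mice 0 members were called by either tool and none had an unadjusted p under 0.05 (0% of 990 miRNAs called), with differences of -0.22 to 0.08. miR-34a-5p did not follow the others in the NAc: it averaged 81.8 ± 26.0 RPM in NAWD, 70.2 ± 14.0 in Nic and 72.4 ± 20.7 RPM in TA libraries.

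At 4 weeks after nicotine, 0 of 6 members were called in any region by limma or edgeR (0% of 1044 miRNAs in the IPN, 0% of 1108 in the MHb and 0.0867% of 1154 in the NAc by limma), with 0, 1 and 3 members at an unadjusted p under 0.05. Over all miRNAs 127, 70 and 161 had such a p, in the same order of regions. In the NAc, miR-34a-5p had 81.1, 75.5, 68.4, 106 and 118 RPM in NLWD libraries, against 69.7, 49.3, 60.5, 34.3 and 61.3 RPM in TAL libraries. NLWD replicate 3 was the only one under the highest TAL library (0.53 ± 0.13, limma adjusted p = 0.0614). miR-449a-5p did not overlap there, with 12.6 to 13.7 RPM in NLWD and 8.28 to 12.2 RPM in TAL libraries (0.24 ± 0.09, limma adjusted p = 0.241). Of the 1154 miRNAs of the NAc, 24 did not overlap. In the MHb the value with the smallest p was miR-34a-5p (-0.29 ± 0.10, limma adjusted p = 0.643).

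Whether the effect of 48 h withdrawal differed between regions was tested directly over 45 libraries. No member passed: by limma 0 of 6 were called for the IPN minus the MHb (2.9% of 863 miRNAs), for the IPN minus the NAc (5.16% of 931) and for the MHb minus the NAc (0.352% of 852), with 2, 2 and 1 members at an unadjusted p under 0.05; edgeR was not run on these contrasts. Over all miRNAs 149, 203 and 150 had an unadjusted limma p under 0.05, in the same order of contrasts. The closest members were miR-34a-5p (0.83 ± 0.24, limma adjusted p = 0.0199) and miR-34b-5p (0.84 ± 0.25, 0.0201) for the IPN minus the NAc. Without IPN TA replicate 3 both passed, miR-34a-5p also passed without NAc NAWD replicate 4, and miR-34b-5p without TA replicate 5, Nic replicate 1 or NAWD replicate 5 of the NAc.

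**Figure D3:**
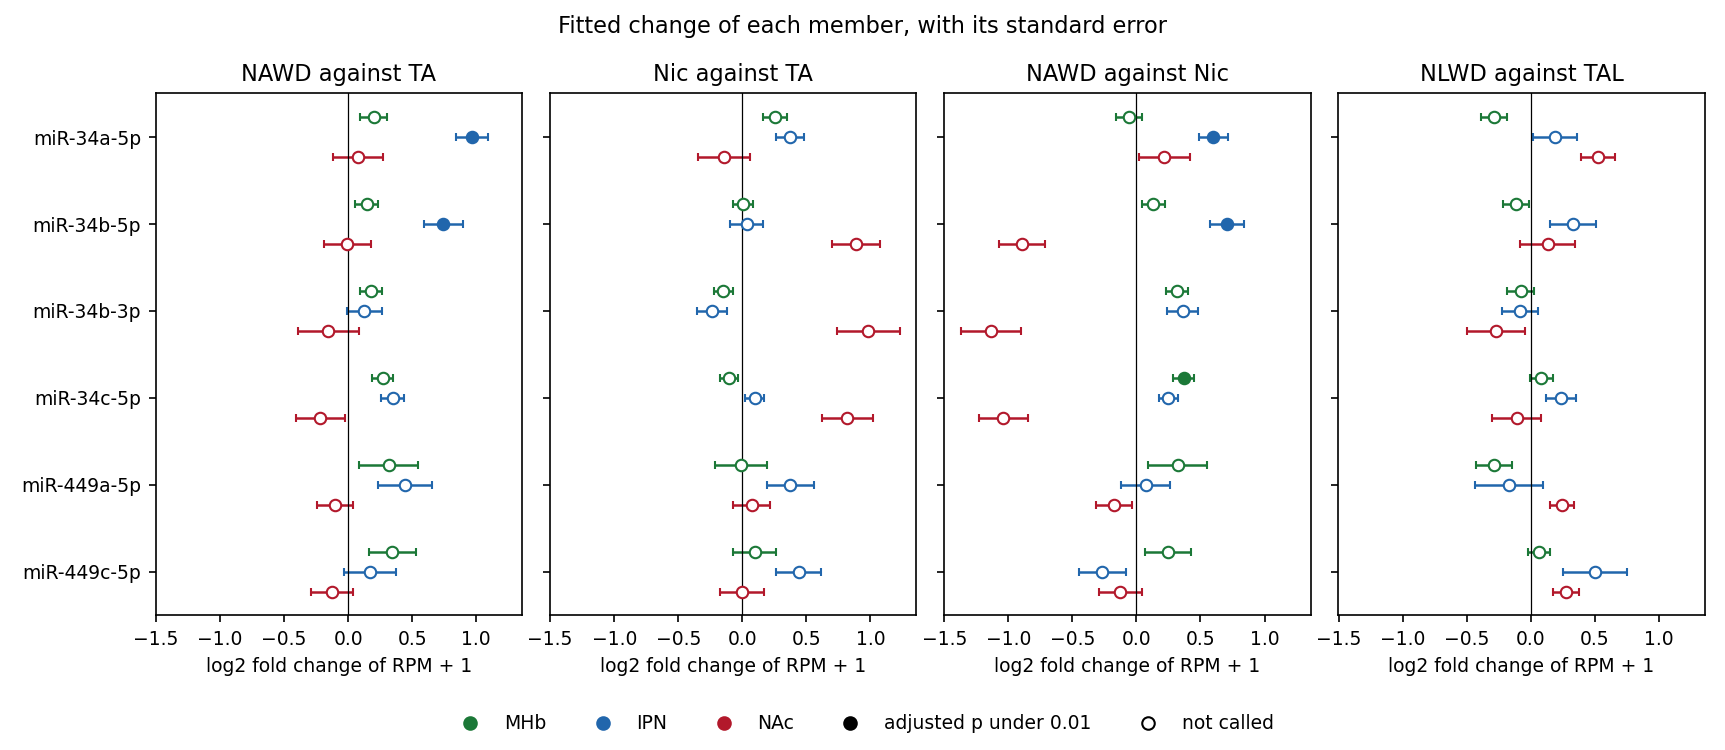
Log2 difference of each member in each comparison of treatments, with 1 standard error from limma, by region (filled points are called at an adjusted p under 0.01). The called values are miR-34a-5p and miR-34b-5p in the IPN, NAWD against TA and NAWD against Nic, and miR-34c-5p in the MHb, NAWD against Nic, while in the NAc miR-34b-5p, miR-34b-3p and miR-34c-5p lie at 0.82 to 0.98 in Nic against TA and at -1.14 to -0.89 in NAWD against Nic without passing.

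The miR-34b and miR-34c levels were set against the summed TPM of 47 multiciliated-cell genes in the 20 to 23 libraries of each region that had both assays. Values were centered on treatment, r was tested by permuting libraries within treatments 100000 times (two-sided), and 18 relations were tested together. In the NAc, miR-34c-5p rose with the summed genes (r = 0.93, rho = 0.94, permutation p = 1e-05 for both, the smallest that these permutations can give, adjusted p = 0.00018, n = 23). Without Nic replicates 1 and 2, the libraries farthest from the median of the summed genes, r was 0.91. Thus the Nic libraries with the most miR-34c-5p were also those with the most of the ciliated-cell genes: their sums were 436, 324, 241, 200 and 236 TPM, against 219, 227, 184, 139 and 142 TPM in TA libraries.

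The relation also held for miR-34b-5p in the NAc (r = 0.78, rho = 0.76, permutation adjusted p = 0.00138, r = 0.75 without those libraries). For miR-34b-3p it rested on them (r = 0.64, permutation adjusted p = 0.0227, against r = 0.48, adjusted p = 0.190 without them). In the MHb the same 3 members and miR-449a-5p passed (n = 22), with r of 0.71 for miR-34b-5p, 0.70 for miR-34b-3p, 0.63 for miR-34c-5p and 0.66 for miR-449a-5p (permutation adjusted p = 0.00364, 0.00138, 0.0227 and 0.00605). Without NLWD replicate 3 and TA replicate 3 miR-34c-5p fell short (r = 0.54, adjusted p = 0.104), and uncentered values of miR-449a-5p gave r = -0.11. In the IPN no relation passed (permutation adjusted p of 0.567 or more), but most of the sum came there from genes other than Tmem212, Ccdc153, Rsph1 and Foxj1. For miR-34a-5p the relation to the sum passed in no region. No miRNA outside the family was set against the sum in any region, so the share of all miRNAs that would pass is not known. The relations in the NAc and the MHb are therefore a description of these members and cannot be read as particular to them. The part of choroid plexus RNA in these relations was not tested.

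**Figure D4:**
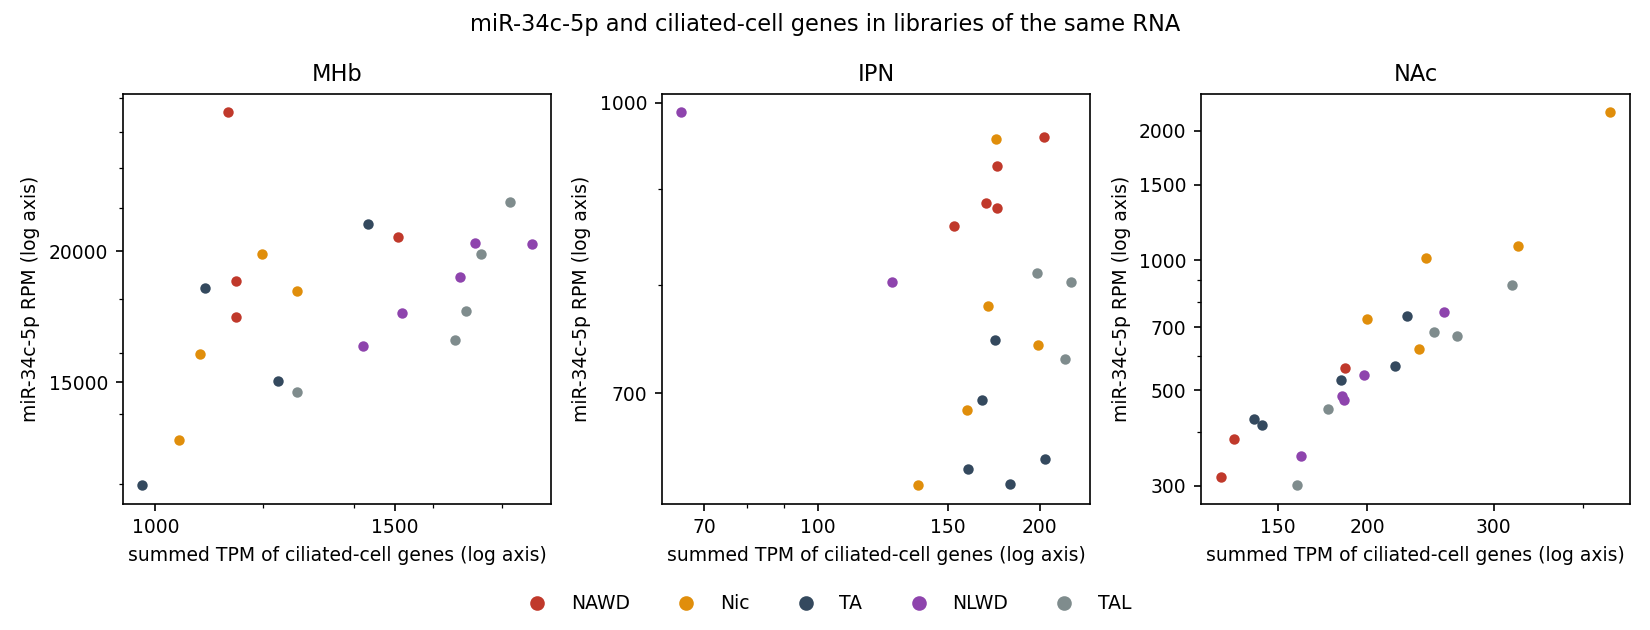
miR-34c-5p (RPM) against the summed TPM of multiciliated-cell genes in libraries with both assays, log axes, by region, with a point per library colored by treatment. In the NAc the libraries rise together, from 124.8 TPM to the 436 TPM of Nic replicate 1, in the MHb they rise more loosely, and in the IPN no relation passed.

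The ciliated-cell genes themselves were read in Nic against TA mice of the NAc. Of 45 genes tested 2 rose and 0 fell, against 0.614% of 17589 genes called, and 41 of 45 had a positive difference, with a median of 0.308 on the log2 scale against 0.024 over all genes. The called genes were Rsph1, a radial spoke protein of motile cilia (11.03 ± 4.85 TPM in Nic and 4.78 ± 1.78 TPM in TA libraries, log2 1.51, limma adjusted p = 0.00988), and Cfap52, a protein of the axoneme (log2 1.0, limma adjusted p = 0.0094). Without factors 31 of 45 were positive and the median was 0.092, against -0.163 over all genes. Choroid plexus genes lay on the same side in this comparison, with 12 of 15 positive, a median of 0.32 and 0 called. Both ciliated-cell calls were lost without factors and without any 1 of 12 of the 14 libraries fitted, that is, all but TA replicate 2 and NAWD replicate 4, and 1 was lost without the last. In NAWD against TA mice of the NAc, 0 of 45 were called (0% of 17750 genes), 20 of 45 were positive and the median was -0.019. Their part in the miR-34 values of the NAc was not tested beyond the relation above.

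Genes around the hairpins were low, and Cdc20b and Btg4 were near 0. Cdc20b, whose intron holds the miR-449 hairpins, was at 0 TPM in every MHb library and averaged 0.01 TPM in the IPN and 0.028 in the NAc. Btg4, a neighbor of the miR-34b and miR-34c hairpins, averaged at most 0.0035 TPM. Mcidas and Ccno, neighbors of Cdc20b that act in the making of multiciliated cells, were low, with Ccno averaging 0.579 TPM in the MHb, 0.415 in the IPN and 2.84 in the NAc.

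Other miRNAs with the pattern of the members were ranked among 424 miRNAs averaging at least 10 RPM, by Pearson r over 75 libraries, as a description. miR-34c-5p was closest to miR-34b-3p (r = 0.98), miR-34b-5p (0.96) and miR-448-3p (0.96) as measured. Centered on region and treatment it was closest to miR-34b-5p (0.66), miR-34b-3p (0.64) and miR-224-5p (0.54). miR-34a-5p was closest to miR-199b-3p, miR-199a-3p (0.96 each) and miR-199a-5p (0.94) as measured, and to miR-340-3p (0.56), miR-142a-3p (0.56) and miR-381-5p (0.55) when centered.

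A list of 34 mRNAs reported as targets of miR-34, with Prkag1 added, was read where the members moved. For mRNAs, here and below, the share of all genes at an unadjusted p under 0.05 was not counted. Nor was the share of all genes whose groups did not overlap. Such counts and values are therefore a description. Prkag1 was chosen by the study on these samples, as a predicted miR-34 target lower in the IPN of NAWD than of TA mice, so its sign there and its seed match are no independent evidence. In the IPN, NAWD against TA, 0 of 35 were called (0.0933% of 18230 genes called, 8 of the 35 at an unadjusted p under 0.05; no count test was run on mRNA), 12 had a positive difference, and the median was -0.122 on the log2 scale against -0.033 over all genes. Those with the smallest p, beside Prkag1, were the apoptosis inhibitor Bcl2 (-0.46), the receptor gene Notch2 (-0.36) and the centriolar gene Ccp110 (-0.55). Bcl2 averaged 2.21 ± 0.80 TPM in NAWD and 5.12 ± 1.21 TPM in TA libraries (limma adjusted p = 0.170). Without factors 3 of the 35 fell and 0 were positive, with a median of -0.595, while over all 18230 genes 38 rose and 502 fell, with a median of -0.34.

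In the MHb, NAWD against TA, 1 of 34 rose and 0 fell (0.782% of 17136 genes called), 13 were positive, and the median was -0.066, against 0.014 over all genes. In the NAc, Nic against TA, 1 of 35 fell (0.614% of all genes called, 13 rising and 95 falling), 17 had an unadjusted p under 0.05, 11 were positive, and the median was -0.158, against 0.024. The 17 cannot be set against a share of all genes, which was not counted. The target that fell was Ccnd1, the cell cycle gene of cyclin D1, with 10.2, 9.64, 10.5, 7.90 and 7.51 TPM in Nic libraries, against 29.4, 18.6, 32.0, 33.7 and 31.9 TPM in TA libraries. The groups did not overlap (log2 -1.21, limma adjusted p = 0.0094), and the call was lost without any 1 of the same 12 libraries. In Nic against TA mice 0 of 35 targets were called in the IPN (0% of 18570 genes) and 0 of 34 in the MHb (0% of 17289), with 1 and 5 at an unadjusted p under 0.05.

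Genes of the p53 pathway were also read, since p53 is a known activator of miR-34a. In the IPN, NAWD against TA, 0 of 29 were called (0.0933% of 18230 genes called) and 3 had an unadjusted p under 0.05. The median was -0.064, against -0.033 over all genes. The 4 with the smallest p were the p53 effectors Phlda3 (-0.51), Btg2 (-0.28), Ddit4 (-0.33) and Cdkn1a (-0.49). None of the other regions or comparisons called a gene of this list either, where 0% to 0.782% of all genes were called. In Nic against TA mice 11 of 29 had an unadjusted p under 0.05 in the NAc (median 0.185, against 0.024 over all genes). In the IPN 7 of 30 did (0.104, against 0.042). The remaining comparisons had 2 to 4 such genes. No share of all genes at that p stands beside these counts.

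Prkag1, the gamma 1 subunit of AMP-activated protein kinase, was the listed target called in the MHb. In the IPN, where the study chose it, its difference had the opposite sign and is given as a description. In the MHb it had 175, 217, 125 and 171 TPM in NAWD libraries, against 65.7, 8.3, 10.7 and 11.03 TPM in TA libraries. The groups did not overlap (log2 2.97, limma adjusted p = 0.000181). In the IPN it had 21.7, 27.8, 115, 117 and 63.0 TPM in NAWD libraries, against 411, 439, 194, 202 and 311 TPM in TA libraries. Here too no libraries overlapped, and the log2 difference was -1.61. The gene varied widely beyond these groups, with 213.0 to 514.8 TPM in Nic libraries of the IPN, 5.59 to 21.2 TPM in TAL libraries and 7.58 and 10.1 TPM in NLWD libraries of the IPN, and 9.17 to 344.2 TPM over the libraries of the NAc. An annotated antisense gene, B130046B21Rik, covers 950 of its 2175 exonic bases. That gene was listed at 0 to 0.54 TPM in the IPN and 0 to 0.44 TPM in the MHb, and whether Prkag1 shares reads with copies elsewhere in the genome was not tested.

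The match of the shared seed, CACTGCC, was searched in annotated 3′ UTRs (GENCODE M21, on the transcribed strand) and was found in 15% of 21020 genes and in 24 of the 35 listed targets (68.6%). Prkag1 held it in a 24-base site on chr15:98813320-98813343 (GRCm38), minus strand, where the capitals mark the match.
Prkag1 site: aggtggccccctCACTGCCtgcct
The match is a description of letters. Listed targets may have been reported because of such a match, so their higher share is no independent evidence. The 3′ UTRs of Ccnd1, Bcl2 and Ccp110 did not hold these letters, while a 3′ UTR of Notch2 held 2 matches. In the MHb, 0 of 20 choroid plexus genes were called in NAWD against TA mice (6 at an unadjusted p under 0.05), but 19 were positive, with a median of 0.398, and their summed level was 18750 to 42500 TPM in NAWD and 10770 to 28160 TPM in TA libraries. Of 8 NAc markers, Ppp1r1b was also called there (log2 1.38, limma adjusted p = 0.00376). The part of these in the Prkag1 value was not tested.

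**Figure D5:**
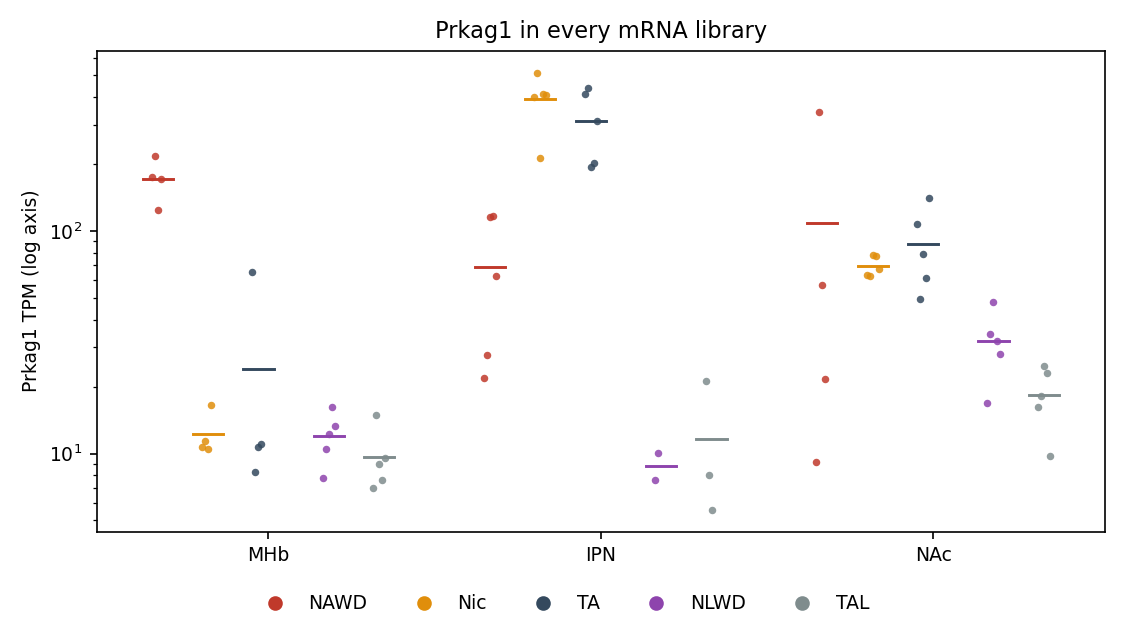
Prkag1 level (TPM, log axis) in each mRNA library by region and treatment (a point per library, a horizontal line at the group mean). NAWD libraries lie above TA libraries in the MHb (lowest 125 against highest 65.7 TPM) and below them in the IPN (highest 117 against lowest 194 TPM).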

How the data were processed

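Small RNA and mRNA libraries were made from the same pooled tissue of each region. Per the labels and methods, the authors trimmed small RNA reads with cutadapt 1.11 and mapped them to mm10 with Bowtie 1.1.2, and deposited RPM of each mature miRNA with the total of assigned reads. RPM multiplied by those totals gave whole reads for 100% of 82350 values above 0 in 75 libraries (within 0.05 of a whole number), and the deposited totals, which are counts, were used for this by the edgeR alternative. For mRNA the authors used STAR 2.5.3a and RSEM 1.3.0 and deposited TPM per gene. Symbols were matched for 42462 of 43432 gene IDs. Deposited tables of the authors' own comparisons (log2 fold changes, ratios and FDR from DESeq2 1.14.1) were not used.

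log2(RPM + 1) was tested with limma 3.58.1 (trend, empirical Bayes, two-sided) in R 4.3.3, keeping miRNAs above 0 in no less than 0.5 of the libraries per group, with Benjamini-Hochberg adjustment over all miRNAs and a call at 0.01. Factors of unwanted variation were estimated from differences within groups after the RUVs method, in a form written for this work, since the authors removed such factors: 4, 4 and 3 (IPN, MHb, NAc) for NAWD, Nic and TA libraries, which were fitted together, and 1, 1 and 2 for NLWD and TAL libraries. Region comparisons had no factors, and the test of region by withdrawal had 4. log2(TPM + 1) was tested in the same way (2, 2 and 1 factors) with calls at 0.01 and a fold over 2. A difference on the scale of log2(value + 1) understates that of a low gene. The pseudocount was 1, and edgeR 4.0.16 (quasi-likelihood) was run on whole reads as an alternative.

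The members and lists were chosen with earlier results of these data known. Named were the members in every comparison, other products of their hairpins at 10 RPM or more in a region, host and neighbor genes, Prkag1, up to 4 called genes of a list or the 4 with the smallest p, and the 3 nearest miRNAs of miR-34a-5p and miR-34c-5p. Ppp1r1b was named after its value was seen. The fits were tested on simulated data: changes of 1 on the log2 scale in miRNAs at 10 RPM or more were recovered in 100% of cases in NAWD against TA mice of the IPN, and in 65% over all levels. In the test of region by withdrawal, IPN minus NAc, 85.6% and 52% were recovered. False calls numbered 5 in the former simulation and 0 in the latter. The residual spread was set in advance and not taken from these libraries, so the shares need not hold for members that vary more. Permutations and figures were made in Python 3.11.15 (matplotlib 3.10.9).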

Additional observations from a re-analysis of the deposited data

Results flagged for a closer look

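Single libraries standing far from the other 4 of their group were looked for in 90 groups of members, by a gap over 0.71 of the range of the group (Dixon), and 5 were found. Chance gives about 1 in 20 groups. miR-34a-5p had 740 RPM in Nic replicate 1 of the IPN, against 554 to 581 RPM in the other Nic libraries. miR-34b-5p had 56.7 RPM in NAWD replicate 1 of the IPN, against 38.6 to 43.5 RPM in the others. miR-34b-3p had 485 RPM in NLWD replicate 4 of the MHb, below the 635 to 690 RPM of the others. miR-449a-5p had 11.6 RPM in Nic replicate 2 of the MHb, against 6.14 to 7.65 RPM, and 4.67 RPM in TAL replicate 5 of the MHb, below 6.82 to 7.35 RPM.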

How the results depend on the processing

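In the IPN, NAWD against TA, miR-34a-5p was called under all 9 alternatives and without each library in turn (limma and edgeR adjusted p of 3.89e-06 to 0.00623). The number of members called there, 2, was 1 with no filter, 1 with a mean of at least 10 RPM, 1 with the replicate block and no factors and 1 under quantile normalization, and 1 to 3 without single libraries (1 without TA replicate 4 or NAWD replicate 3). In the IPN, NAWD against Nic, 2 became 1 with no filter and under quantile normalization, and 0 without factors, with or without the replicate block. In the MHb, NAWD against Nic, 1 became 0 with a pseudocount of 0.1, no filter, no factors or the replicate block without factors, stayed 1 with a mean of at least 10 RPM although miR-34b-3p took the place of miR-34c-5p, and became 2 with the replicate block and factors or by edgeR; without single libraries it was 0 to 2. miR-34b-3p there turned to -0.06 without factors, with or without the block. In the NAc, Nic against TA, 0 became 3 with a pseudocount of 0.1 or with only the 2 groups compared, 2 with the replicate block and factors, 1 by edgeR and 0 to 3 without single libraries. In the NAc, NAWD against Nic, 0 became 3 with a pseudocount of 0.1, only the 2 groups or edgeR, and 0 to 3 without single libraries. The cause of these changes was not tested.

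Between regions, TAL in place of TA libraries gave 5 members in place of 3 for the MHb against the IPN (miR-449a-5p -0.63), and, in the IPN against the NAc, 2.45 for miR-34b-5p and 0.03 for miR-449a-5p, where a mean of at least 10 RPM left 1 of 2 calls because it removed that miRNA. The test of region by withdrawal, IPN minus NAc, gave 0 to 2 members without single libraries, 2 without IPN TA replicate 3. Of mRNAs in the IPN, NAWD against TA, 3 listed targets and 1 p53 gene were called without factors, and likewise with the replicate block, where 38 genes rose and 502 fell (526 with the block) of 18230, against 13 and 4 with factors. In the NAc, Nic against TA, the 1 target was 0 with the replicate block without factors and 0 to 1 without single libraries, and the 2 ciliated-cell genes were 0 without factors, with or without the block, and 0 to 3 without single libraries. Choroid plexus genes in the MHb, NAWD against TA, were 0 to 1 without single libraries. The uncentered relation of miR-449a-5p with ciliated-cell genes in the MHb was -0.11. Values near 0 that were not called changed sign without single libraries: miR-34b-3p (-0.01 to 0.22) and miR-449c-5p (-0.03 to 0.44, and -0.01 with only the 2 groups) in the IPN, NAWD against TA, miR-449a-5p in the MHb against the IPN (-0.05 to 0.19) and miR-34b-5p in the IPN against the NAc (-0.26 to 0.11). Over all miRNAs, calls in the IPN, NAWD against TA, were 45, with 113 at a pseudocount of 0.1 and 16 with no filter; in NAWD against Nic 55, with 8 without factors; and in the MHb, NAWD against Nic, 58, with 7 without factors. Libraries with the same number deviated together with r of -0.45 to 0.30 between treatments of a region. Between regions of TA, TAL, Nic or NAWD mice r was -0.30 to 0.21, and NLWD mice were not checked. No comparison had every pair over 0.1, so the numbers were not taken to pair the libraries. The MHb against the IPN in NAWD mice came closest, with 4 of 5 pairs over 0.1 and 4 closest to their own number. The test of region by withdrawal was not run with pairs.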
